A study of Mus musculus with 9 samples.

Results

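Toll-like receptors are the sensors by which macrophages recognise pieces of bacteria and viruses. TLR4, with its co-receptors CD14 and MD-2, binds lipopolysaccharide. TLR2 pairs with TLR1 or TLR6 on the cell surface to bind bacterial lipoproteins, while TLR3, TLR7 and TLR9 read nucleic acids inside endosomes. All of them except TLR3 signal through the adaptor MyD88, and in osteoclast precursors the same receptors are known to act on the course of differentiation. The 10 genes described here are Cd14, Ly96 (which encodes MD-2), Tlr4, Tlr2, Tlr1, Tlr6, Tlr3, Tlr7, Tlr9 and Myd88. They were taken by symbol from the 23282 gene rows deposited for each library.

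The cells were RAW264.7, a mouse macrophage line of BALB/c origin whose cells become osteoclast-like under RANKL, the main differentiation signal for osteoclasts. The 9 libraries fell into 3 groups of 3. The cells, at passage 30, received RANKL alone (50 ng/mL), RANKL with surface proteins extracted from the dairy bacterium Propionibacterium freudenreichii MJ2 (10 µg/mL), or heat-killed MJ2 (1e7 cells/mL), in each case for 4 days, and the question was how the bacterium and its surface proteins change gene expression in differentiating cells. Whether the cells of the heat-killed MJ2 libraries also received RANKL is not stated library by library in the sources used here, so in comparisons with that group RANKL and the bacterium cannot be told apart. RAW264.7 is a single cell line and nothing states that replicates were separate cultures, so that the p-values measure the spread between these libraries, which may be technical.

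Each deposited value was on the log2 scale, and 2 raised to that value, minus 1, is called here the adjusted reads of a gene. The kit sequences the 3′ end of each mRNA, so that a value does not grow with transcript length. Totals lay between 5930926 and 6503682 adjusted reads per library, and 1 read was worth 0.924 to 1.11 adjusted reads. Replicate 2 of RANKL alone, replicate 1 of heat-killed MJ2 and replicate 3 of the surface proteins stood apart, with 7779 rows at 0 against 10075 to 10875 in the other 6 libraries. In that order they held 3195, 2454 and 2948 rows above 0 but well under 1 adjusted read, and the other 6 held none. The 7779 rows were those at 0 in all 9 libraries, so rows at 0 are not a count of genes without reads. All 8 macrophage markers, among them Adgre1, Cd68 and Lyz2, had at least 10 adjusted reads in every library. Of 12 markers of lymphocytes, fibroblasts, epithelium and other cells, 10 stayed under 10 adjusted reads in every library, and Cd3e, Ms4a1, Nkg7 and Krt18 were at 0. Osteoclast markers, 10 genes including Acp5 and Ctsk, summed to 23892 to 32428 adjusted reads under RANKL alone, 16246 to 20622 with heat-killed MJ2 and 5866 to 8723 with surface proteins, and their part in the receptor results was not tested. By the test used below, which 17.5% of all tested genes passed with surface proteins and 4.26% with heat-killed MJ2, 7 of 9 tested osteoclast markers fell with surface proteins and 2 with heat-killed MJ2. Itgb3, which was among the 7, was under 10 adjusted reads in 2 or more of the surface protein libraries, and without it 6 of 8 fell. Of the 8 macrophage markers 3 rose with surface proteins and 2 with heat-killed MJ2, and 1 (Csf1r) fell with surface proteins. In bulk RNA, fewer cells of a type and less RNA per cell cannot be told apart.

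The promoters of 6 of the 10 genes were listed among the RefSeq sequences (GRCm38.p6), each covering 250 bases before and 50 after a start site, and they were searched on both strands for the letters of 4 kinds of factor site. The NF-kB letters (GGG, any 3 bases, TTCC) occur in 5.56% of all 32851 promoters of this length, the ISRE of interferon regulatory factors (GAAA, any 2 bases, GAAA) in 3.44%, TTCNNNGAA (the GAS of STAT factors, its own reverse complement) in 8.3% and GAGGAAGT (PU.1, a macrophage factor) in 3.2%. The runs below are 30 bases of the gene's own strand around 1 match, with the matching letters in capitals. All 6 genes held a match, and 1 window is shown for each of the 5 that were tested for a difference in expression, whether or not they passed.
Tlr1, chr5:64933563-64933592, minus strand, PU.1: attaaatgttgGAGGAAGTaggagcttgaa
Tlr3, chr8:45410572-45410601, minus strand, NF-kB: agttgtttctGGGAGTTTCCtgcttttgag
Tlr2, chr3:83841762-83841791, minus strand, NF-kB: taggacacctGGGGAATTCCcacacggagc
Tlr6, chr5:64959260-64959289, minus strand, 2 overlapping ISREs: ctattctTTTCTCTTTCACTTTCtgtttga
Myd88, chr9:119340042-119340071, minus strand, GAS overlapping an ISRE: gcggagcTTCTCGGAAAGCGAAAgaaggag
The NF-kB letters started 173 bases before the start site in Tlr2 and 211 bases before it in Tlr3, where they lie inside annotated exons of the gene (GENCODE, 45410453 to 45410812). A match is a description of letters and not a site of binding. NF-kB letters stood near starts of Tlr2, Tlr3 and Tlr6, and nothing about the results is read from them.

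The 10 genes differed widely in level. Under RANKL alone the mean was highest for Cd14 (609 adjusted reads) and Myd88 (358), followed by Tlr2 (174), Tlr7 (136), Ly96 (111) and Tlr4 (68.4). Tlr1 (22.1), Tlr6 (20.2) and Tlr3 (10.2) were low. In this order, neighbours overlapped over the RANKL-alone libraries except at 3 steps, from Myd88 to Tlr2, from Ly96 to Tlr4 and from Tlr4 to Tlr1. Tlr9 was close to absent, so that 9 of the 10 genes were tested. Tlr3 had under 10 adjusted reads in 2 of the 3 RANKL-alone libraries and passed the filter on low values through its treated libraries.

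**Figure D1:**
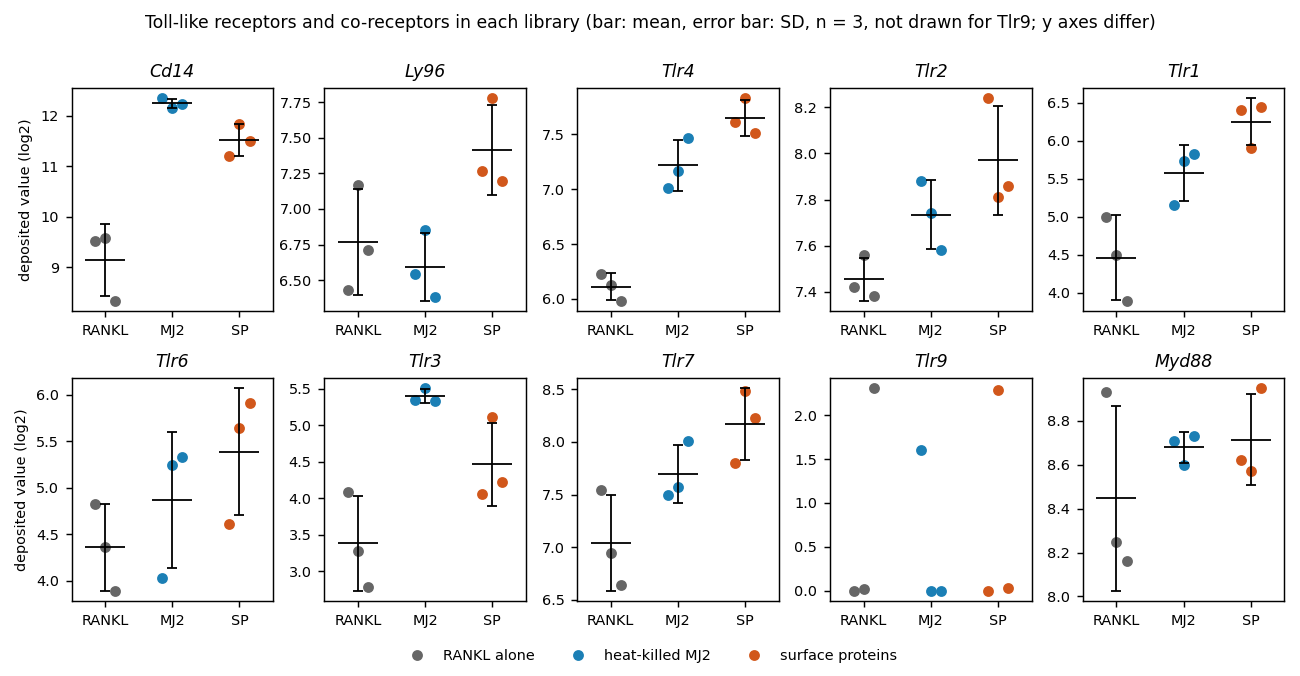
Deposited log2 value (y axis, own scale for each gene) of the 10 genes in each of the 9 libraries, with RANKL alone in grey, heat-killed MJ2 in blue and surface proteins (SP) in orange. Points are libraries, bars are means and error bars SD (n = 3), and the groups stand apart most clearly for Cd14, Tlr4 and Tlr1.

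Against RANKL alone, surface proteins raised 4 of the 9 tested genes, Cd14, Tlr4, Tlr1 and Tlr7, and lowered none. To pass, a gene had to reach a limma adjusted p below 0.05 and to differ by 2-fold or more, and 17.5% of the 10874 genes tested in this comparison did so, 10.2% upwards. Without the limit on the fold change it was the same 4 of the 9 genes, against 29.1% of all genes. Tlr3 had under 10 adjusted reads in 2 of the 3 RANKL-alone libraries and entered the tests against RANKL alone only through its treated libraries, so it is left out of the counts that follow. Of the other 8 genes, 4 passed with surface proteins, all 8 differences were positive with a median of 1.08 on the log2 scale, and in 6 the groups did not overlap. The groups did not overlap in 48.4% of all genes tested. With every gene left out that had under 10 adjusted reads in 2 or more libraries of a group, 10167 genes remained, of which 15.2% passed and 47.6% did not overlap, at a median of -0.018. Heat-killed MJ2 against RANKL alone raised Cd14 and Tlr4, and Tlr3 also reached the threshold, where 4.26% of 10814 genes passed and 3.37% rose, and without the limit on the fold change 5.88% of all genes and the same 3 genes passed. These counts rest on each heat-killed MJ2 library: without replicate 1 of that group 81 of 10572 genes and none of the 9 passed, and without replicate 2 or 3 it was 155 and 116 genes and Cd14 alone of the 9. Without replicate 2 of RANKL alone Tlr3 and Tlr4 no longer passed, and without replicate 3 of RANKL alone 300 genes passed and Tlr4 did not. In all libraries and without Tlr3, 2 of 8 genes passed, 7 of the 8 differences were positive with a median of 0.58, and in 4 the groups did not overlap. The groups did not overlap in 30.2% of all genes tested, and of the 10282 genes that remained after the same step 3.25% passed and 29.5% did not overlap, at a median of -0.013. With at least 10 adjusted reads required in every library, 2 of the 8 genes and 360 of 9742 genes in all passed. Both comparisons share the 3 RANKL-alone libraries, so that a low control library enters both. Exact permutation of 3 against 3 libraries cannot give a two-sided p below 0.1, and limma was used for that reason.

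**Figure D2:**
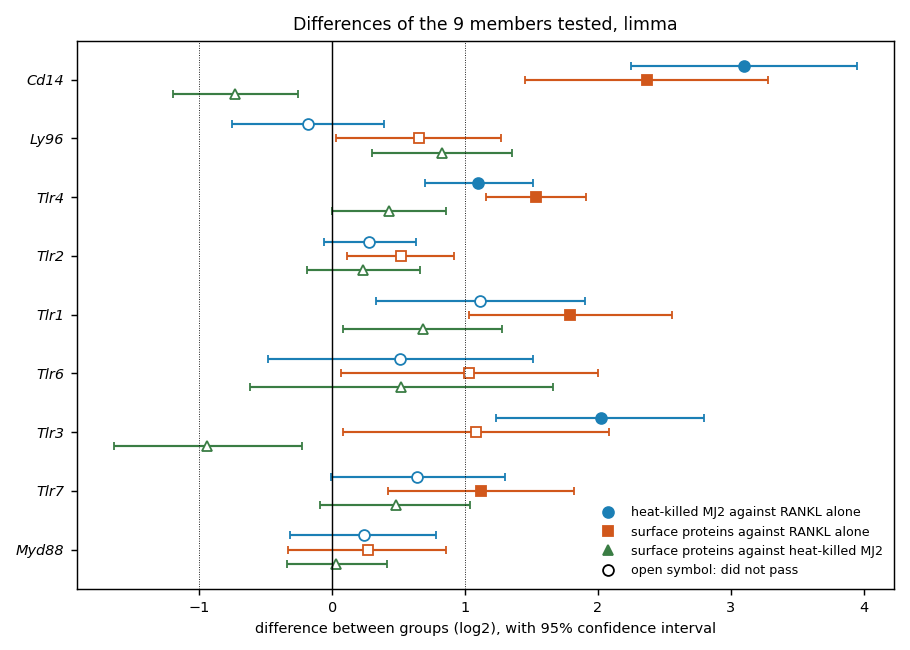
Log2 difference of the 9 tested genes in the 3 comparisons, with 95% intervals from limma. Differences against RANKL alone lie above 0 for every gene except Ly96 with heat-killed MJ2, and surface proteins against heat-killed MJ2 gives values between -0.94 and 0.83.

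Cd14, the co-receptor that hands lipopolysaccharide to TLR4 and MD-2, had the largest differences from RANKL alone of the 9 genes. Its values were 738, 770 and 320 adjusted reads under RANKL alone, 2353, 3657 and 2917 with surface proteins, and 5230, 4566 and 4813 with heat-killed MJ2. The 3 groups did not overlap, and replicate 3 of RANKL alone was the lowest library. Surface proteins gave a log2 difference of 2.37 ± 0.38 (SE, 5.16-fold, limma adjusted p = 0.00712), and heat-killed MJ2 gave 3.10 ± 0.35 (8.57-fold, limma adjusted p = 0.00851). Without replicate 3 of RANKL alone, the difference was smallest in both comparisons, at 1.96 and 2.69. The call for heat-killed MJ2 was lost without its replicate 1, at an adjusted p of 0.0527.

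Ly96 encodes MD-2, the protein that holds lipopolysaccharide against TLR4, and it did not follow Cd14. It had 85.3, 143 and 104 adjusted reads under RANKL alone, 92.1, 114 and 82.4 with heat-killed MJ2, and 154, 219 and 146 with surface proteins. Every surface-protein library was above every RANKL-alone library, the closest being 146 against 143. The difference for surface proteins was 0.65 on the log2 scale (95% interval 0.03 to 1.27, limma adjusted p = 0.107), and for heat-killed MJ2 it was -0.18 (-0.75 to 0.39, limma adjusted p = 0.695), and neither passed.

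Tlr4 is the lipopolysaccharide receptor itself, and its libraries lay close together within each group. It read 74.0, 69.1 and 62.3 adjusted reads under RANKL alone, 194, 227 and 181 with surface proteins, and 128, 143 and 177 with heat-killed MJ2. No groups overlapped. With surface proteins Tlr4 rose by 1.53 ± 0.15 on the log2 scale (SE, 2.90-fold, limma adjusted p = 0.0017), and it passed under all 17 alternatives tried. With heat-killed MJ2 it rose by 1.10 ± 0.17 (2.15-fold, limma adjusted p = 0.0211), a call that was lost without replicate 2 or 3 of RANKL alone or without any 1 heat-killed MJ2 library (adjusted p from 0.057 to 0.0706).

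Among the lipoprotein receptors, Tlr1 rose with surface proteins while Tlr2 and Tlr6 did not pass. The 95% intervals of Tlr1 (1.03 to 2.56) and Tlr6 (0.07 to 2.0) with surface proteins overlapped. Tlr1 read 30.9, 21.7 and 13.8 adjusted reads under RANKL alone, 84.2, 58.5 and 86.5 with surface proteins, and 34.8, 52.3 and 55.9 with heat-killed MJ2. The 3 groups did not overlap. Surface proteins raised it by 1.79 ± 0.32 on the log2 scale (SE, 3.46-fold, limma adjusted p = 0.00959), and the value stayed between 1.5 and 2.06 when any 1 library was left out. With 2 libraries a group, those that stood apart left out, Tlr1 no longer passed (limma adjusted p = 0.0799). Heat-killed MJ2 gave 1.11 (95% interval 0.33 to 1.90, limma adjusted p = 0.108).

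Tlr2, the shared partner in both pairs, moved little. Its values were 170, 188 and 166 adjusted reads under RANKL alone, 235, 213 and 190 with heat-killed MJ2, and 301, 224 and 231 with surface proteins. Both treated groups lay above RANKL alone without overlap. The log2 difference was 0.52 for surface proteins (95% interval 0.11 to 0.92, limma adjusted p = 0.0639) and 0.28 for heat-killed MJ2 (-0.06 to 0.63, limma adjusted p = 0.304).

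Tlr6, the partner for diacylated lipoproteins, lies 18467 bases from Tlr1 on chromosome 5, on the same strand. It read 27.2, 19.5 and 13.8 adjusted reads under RANKL alone, 23.5, 49.0 and 59.0 with surface proteins, and 15.4, 36.8 and 39.3 with heat-killed MJ2. In each treated group replicate 1 lay within the range of the controls. The difference for surface proteins was 1.03 (95% interval 0.07 to 2.0, limma adjusted p = 0.0992), and without replicate 1 of the surface proteins it was 1.42 with an adjusted p of 0.0276, past the threshold. For heat-killed MJ2 it was 0.51 (-0.48 to 1.51, limma adjusted p = 0.518).

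Ratios inside a library do not change with a single scaling factor per library, although a normalization by rank would change them. The ratio of Tlr2 to Tlr4 was 2.29, 2.72 and 2.67 under RANKL alone, 1.84, 1.49 and 1.08 with heat-killed MJ2, and 1.55, 0.987 and 1.27 with surface proteins. Neither treated group overlapped the controls, and the mean log2 ratio fell by 0.83 and 1.03, with an exact two-sided permutation p of 0.1 for each, the smallest possible (0.15 after Benjamini-Hochberg adjustment over 12 tests). The ratio of Tlr1 to Tlr6 was 1.14, 1.11 and 1.0 under RANKL alone, 2.26, 1.42 and 1.42 with heat-killed MJ2, and 3.59, 1.19 and 1.46 with surface proteins, with no overlap between either treated group and the controls at an exact p of 0.1. The ratio of Tlr2 to Tlr1 was 5.49, 8.66 and 12.0 under RANKL alone, 6.76, 4.07 and 3.4 with heat-killed MJ2, and 3.58, 3.82 and 2.67 with surface proteins. Here the surface-protein libraries lay below the controls (exact p = 0.1), while those with heat-killed MJ2 overlapped them (exact p = 0.2, 0.27 after adjustment). Between the treatments these 3 ratios overlapped, at exact p from 0.3 to 0.8. Cd14 to Ly96 set all 3 groups apart, at 8.65, 5.37 and 3.09 under RANKL alone, 15.3, 16.7 and 20.0 with surface proteins, and 56.8, 40.0 and 58.4 with heat-killed MJ2 (exact p = 0.1 for each pair of groups). None of these ratio tests could reach 0.05 with 3 libraries a group.

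**Figure D3:**
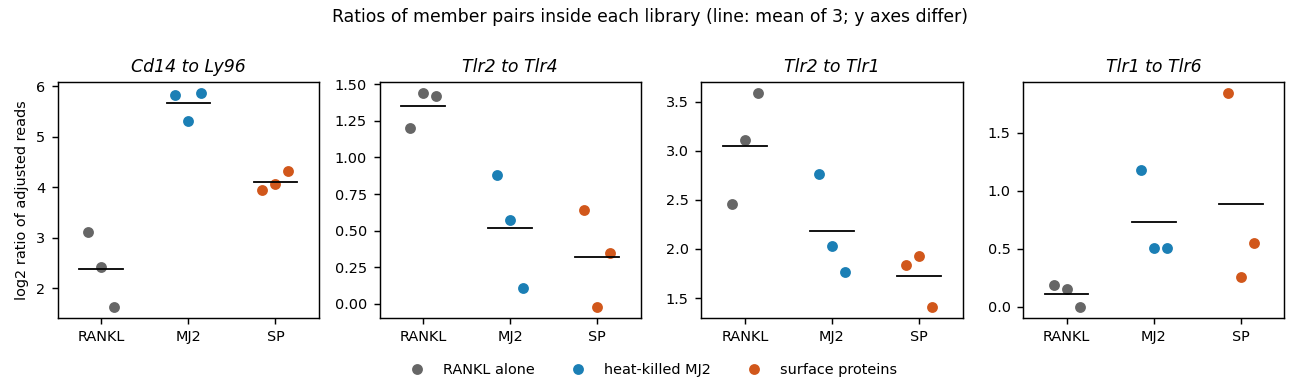
Log2 ratio of adjusted reads (y axis, own scale for each pair) for 4 pairs of genes in each library, with 3 points a group and a line at the mean. Cd14 to Ly96 separates the 3 groups, and Tlr2 to Tlr4 is lower in all 6 treated libraries than in the 3 RANKL-alone libraries.

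Of the endosomal receptors, Tlr3 had its highest mean with heat-killed MJ2 and Tlr7 with surface proteins, and neither passed when the treatments were compared. Tlr3, the sensor of double-stranded RNA, read 15.9, 8.72 and 5.92 adjusted reads under RANKL alone, 39.9, 44.6 and 39.3 with heat-killed MJ2, and 15.6, 33.6 and 17.6 with surface proteins. The heat-killed MJ2 libraries were above all 6 others, while replicate 1 of the surface proteins fell within the controls. Tlr3 was higher by 2.02 ± 0.32 on the log2 scale with heat-killed MJ2 (SE, 4.04-fold, limma adjusted p = 0.0248). It missed the threshold in 7 of 15 alternatives, among them no filter on low values (adjusted p = 0.0626), leaving out replicate 2 of RANKL alone and leaving out any 1 heat-killed MJ2 library (adjusted p from 0.0674 to 0.0908). With surface proteins the difference was 1.08 (95% interval 0.08 to 2.08, limma adjusted p = 0.0985). In 1 of 15 alternatives, with all 9 libraries in the fit, Tlr3 passed with surface proteins (limma adjusted p = 0.0497). Because 1 is added before the log, these values understate the change of a gene as low as Tlr3.

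Tlr7, the sensor of single-stranded RNA, read 186, 123 and 98.9 adjusted reads under RANKL alone, 221, 355 and 299 with surface proteins, and 180, 189 and 256 with heat-killed MJ2. All surface-protein libraries were above the controls, and the heat-killed MJ2 libraries overlapped them. With surface proteins Tlr7 rose by 1.12 ± 0.29 on the log2 scale (SE, 2.17-fold, limma adjusted p = 0.0321). The call was lost in 7 of 17 alternatives, among them no filter on low values (adjusted p = 0.067) and leaving out replicate 2 or 3 of RANKL alone or replicate 2 or 3 of the surface proteins (adjusted p from 0.0799 to 0.0979). Heat-killed MJ2 gave 0.64 (95% interval -0.01 to 1.30, limma adjusted p = 0.229). Surface proteins against heat-killed MJ2 gave 0.48 (95% interval -0.09 to 1.04, limma adjusted p = 0.201), and these groups overlapped.

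Tlr9, the sensor of unmethylated CpG DNA, was not tested. It read 0, 0.0175 and 3.97 adjusted reads under RANKL alone, 2.04, 0 and 0 with heat-killed MJ2, and 0, 3.89 and 0.021 with surface proteins. A listed 0 allows up to 3 reads at this depth, by counting error only, since PCR reads are not independent molecules, and no difference in Tlr9 was detectable.

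Myd88, the adaptor below most of these receptors, had the smallest difference of the 9 genes with surface proteins. It read 486, 303 and 286 adjusted reads under RANKL alone, 418, 388 and 423 with heat-killed MJ2, and 391, 380 and 494 with surface proteins, and the 3 groups overlapped. The log2 difference was 0.27 for surface proteins (95% interval -0.33 to 0.86, limma adjusted p = 0.45) and 0.24 for heat-killed MJ2 (-0.32 to 0.78, limma adjusted p = 0.595), which leaves room for changes in either direction. Myd88 lies within Slc22a14 on the same strand, which was at 0 in all 9 libraries, and overlaps Acaa1a, on the opposite strand, by 1736 bases. Acaa1a fell with surface proteins, by 1.59 on the log2 scale (limma adjusted p = 0.00209), and whether the authors counted reads by strand is not given in the sources used here.

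Between surface proteins and heat-killed MJ2, 0 of the 9 genes passed by limma, where 10.1% of 10916 genes did, 5.08% upwards. At an unadjusted p below 0.05 with the same limit on the fold change the count was also 0. Without the limit on the fold change, 17.9% of all genes and 2 of the 9 passed. Cd14 was lower with surface proteins, at a log2 difference of -0.73 (95% interval -1.20 to -0.26, 1.66-fold, limma adjusted p = 0.048). Ly96 was higher, at 0.83 (0.30 to 1.35, 1.78-fold, limma adjusted p = 0.0469). Both values lie close to the threshold, which Cd14 kept in 6 and Ly96 in 8 of 17 alternatives. Tlr3 was at -0.94 (-1.64 to -0.23, limma adjusted p = 0.0726), and without replicate 2 of the surface proteins at -1.26 with an adjusted p of 0.0275. The groups did not overlap in 5 of the 9 genes, against 42.3% of all genes, and the median difference was 0.43 against 0.031. By their means, 6 genes (Tlr1, Tlr2, Tlr4, Tlr6, Tlr7 and Myd88) stood highest with surface proteins, then heat-killed MJ2, then RANKL alone. Tlr2, Tlr6, Tlr7 and Myd88 overlapped between the treatments, and Myd88 differed there by only 0.03 on the log2 scale (limma adjusted p = 0.901).

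The control libraries were uneven. Replicate 3 of RANKL alone was the lowest of its group in 8 of the 9 tested genes, all but Ly96. The same library had the highest sum of osteoclast markers, 32428 against 23892 and 24527 adjusted reads, and the lowest Adgre1 (F4/80), 26.7 against 106 and 93.9. Its sum of all 8 macrophage markers was close to the others, at 21459 against 21795 and 22053 adjusted reads. Without it Cd14, Tlr1 and Tlr4 still passed with surface proteins and Tlr7 did not. With the 3 libraries that stood apart left out, 2 libraries a group remained, and Cd14 (2.59, limma adjusted p = 0.0437) and Tlr4 (1.61, limma adjusted p = 0.0243) still passed with surface proteins and Tlr1 and Tlr7 did not, while none of the 9 passed with heat-killed MJ2.

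The wider family and the downstream pathway were counted in lists written from general knowledge. Of 5 other Toll-like receptors, Tlr5, Tlr8, Tlr11 and Tlr12 were at 0 in every library. Tlr13, a mouse sensor of bacterial ribosomal RNA, read 16.8, 14.1 and 13.8 adjusted reads under RANKL alone, 132, 109 and 50.6 with surface proteins, and 73.6, 87.1 and 96.1 with heat-killed MJ2. It rose by 2.52 ± 0.36 with surface proteins (SE, limma adjusted p = 0.00487) and by 2.44 ± 0.16 with heat-killed MJ2 (limma adjusted p = 0.000937), larger differences than those of any tested gene among the 10 except Cd14 with heat-killed MJ2.

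Of 12 tested genes for receptor partners and delivery, 4 rose and 1 fell with surface proteins, and 1 rose with heat-killed MJ2. Of all genes 10.2% rose in the first comparison and 3.37% in the second. The median log2 difference of the list was 0.46 with surface proteins and 0.04 with heat-killed MJ2. Cd36, a scavenger receptor that works with TLR2 and TLR6, rose in both, from 107, 185 and 122 adjusted reads under RANKL alone to 1406, 1987 and 1432 with surface proteins and 1027, 950 and 838 with heat-killed MJ2. Hsp90b1 (gp96), the chaperone that folds the receptors, rose by 1.33 with surface proteins (limma adjusted p = 0.00192), and Ctsb, an endosomal protease, by 1.19 (limma adjusted p = 0.0151). Hmgb1, a nuclear protein that can act as a receptor ligand once released, fell by 1.46 with surface proteins (limma adjusted p = 0.0106) and was lower by the same test than with heat-killed MJ2 (-1.47, limma adjusted p = 0.0201).

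Among 4 tested adaptors other than Myd88, 1 passed in every comparison, where 17.5% of all genes passed with surface proteins, 4.26% with heat-killed MJ2 and 10.1% between the treatments, so that 1 of 4 is not far from the share of all genes with surface proteins. Ticam2 encodes TRAM, which links endosomal TLR4 to TRIF, and it read 61.8, 62.6 and 66.2 adjusted reads under RANKL alone, 122, 160 and 111 with heat-killed MJ2, and 644, 662 and 633 with surface proteins. The 3 groups were far apart. It rose by 3.33 ± 0.12 on the log2 scale with surface proteins (SE, 10.0-fold, limma adjusted p = 6.48e-05) and by 1.01 ± 0.17 with heat-killed MJ2 (limma adjusted p = 0.0274), and it was 2.31 ± 0.17 higher with surface proteins than with heat-killed MJ2 (limma adjusted p = 0.00364). Ticam1, which encodes TRIF, had a difference of 0.90 with surface proteins (limma adjusted p = 0.0581), and Tirap, which brings MyD88 to TLR2 and TLR4, had a 95% interval of -0.56 to 0.55.

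Of 19 kinases and ubiquitin ligases of the pathway, 1 rose against RANKL alone in each comparison, Ikbke, which phosphorylates interferon regulatory factors (log2 difference 3.34 with surface proteins, limma adjusted p = 0.00232, and 3.10 with heat-killed MJ2, limma adjusted p = 0.0117). That is 1 of 19 in each, where 10.2% and 3.37% of all genes rose, and the medians of the list were 0.11 and -0.02. Irak4, the first kinase below MyD88, and Traf6, the ubiquitin ligase below it, had differences of 0.12 and -0.05 with surface proteins and -0.35 and 0.09 with heat-killed MJ2, and did not pass. Tab3, a subunit of the TAK1 kinase complex, was 1.17 higher with surface proteins than with heat-killed MJ2 (limma adjusted p = 0.0189). Among 5 transcription factors, Irf7 rose in both, by 4.19 (limma adjusted p = 0.00187) and 3.62 (limma adjusted p = 0.0192), and Irf8, which holds back osteoclast differentiation, rose with surface proteins by 2.84 (limma adjusted p = 0.00756) and was 1.0 higher with them than with heat-killed MJ2 (limma adjusted p = 0.0339).

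Of 15 negative regulators, 4 rose and 1 fell with surface proteins and 2 rose with heat-killed MJ2, with a median of 0.35 in both, where 17.5% and 4.26% of all genes passed. Irak3 (IRAK-M), a brake on MyD88 signalling, read 19.6, 13.1 and 3.94 adjusted reads under RANKL alone, 182, 225 and 205 with heat-killed MJ2, and 391, 569 and 472 with surface proteins. All 6 treated libraries were far above the controls, and Irak3 was also 1.21 higher on the log2 scale with surface proteins than with heat-killed MJ2 (limma adjusted p = 0.0137). Usp18, a brake on interferon signalling, rose by 5.03 and 4.38 (limma adjusted p = 0.00046 and 0.00356), and Zc3h12a (Regnase-1), an RNase that degrades inflammatory mRNAs, rose by 1.56 with surface proteins (limma adjusted p = 0.00398). Rab7b, which sends TLR4 to lysosomes, fell by 1.48 with surface proteins (limma adjusted p = 0.00793).

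Among genes known to be induced through the receptors, 8 of 11 tested passed upwards with surface proteins and 9 of 12 with heat-killed MJ2, and none fell in either. Ptgs2 and Il10, and Il1b in the test with heat-killed MJ2, had under 10 adjusted reads in 2 or more RANKL-alone libraries and entered only through their treated libraries. Without them 7 of 9 rose in each comparison, at medians of 2.45 with surface proteins and 3.85 with heat-killed MJ2, where 8.37% and 2.49% of all genes left after the same step rose. Cxcl2, a neutrophil chemokine, read 24.3, 146 and 18.8 adjusted reads under RANKL alone, 9299, 15456 and 10630 with surface proteins, and 6769, 11926 and 7896 with heat-killed MJ2. Ptgs2 (COX-2) was at or under 1.19 adjusted reads in every RANKL-alone library, so that against a floor of 3 reads per library its level under surface proteins was at least 62.6-fold higher and that under heat-killed MJ2 at least 101-fold higher. Nos2, the inducible nitric oxide synthase, rose by 5.62 and 5.31 (limma adjusted p = 0.00619 and 0.0257). Irg1 (Acod1), which makes itaconate, rose by 5.58 and 6.77 (limma adjusted p = 0.000367 and 0.000369) and was lower with surface proteins than with heat-killed MJ2, at 911, 895 and 962 against 2197, 2105 and 2012 adjusted reads (log2 difference -1.19, limma adjusted p = 0.00666). Cxcl10, an interferon-induced chemokine, was lower too, at 15.6, 24 and 15.5 against 68.5, 83.3 and 132 (-2.28, limma adjusted p = 0.00995).

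**Figure D4:**
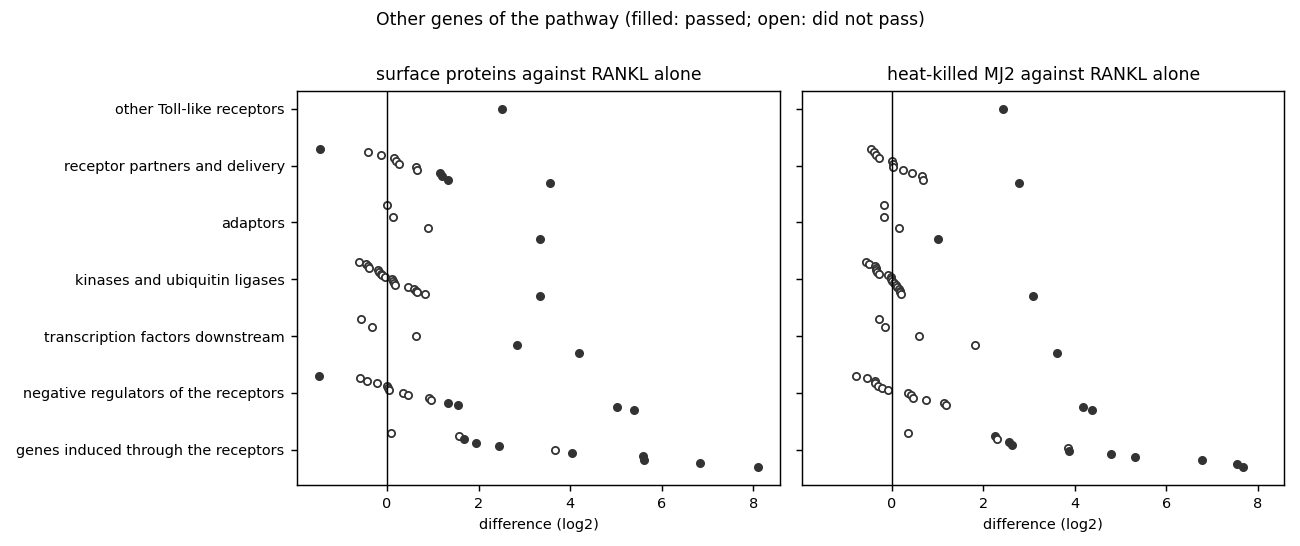
Log2 difference of each tested gene in the pathway lists, for surface proteins and for heat-killed MJ2, each against RANKL alone. Filled points are genes that passed and open points genes that did not. The medians of the genes induced through the receptors, 3.67 and 3.87 against RANKL alone, include Ptgs2, Il10 and (heat-killed MJ2) Il1b, which were low in the RANKL-alone libraries, while the kinases and ubiquitin ligases have medians of 0.11 and -0.02.

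Across the 9 libraries and 11183 genes, the gene whose pattern was most like that of Cd14 was Ddx58 (RIG-I, a sensor of viral RNA; Pearson r = 0.986), followed by Irg1 (0.978) and H2-Q9 (0.977). For Tlr4 the genes were Slc9a4 (0.984), Dnajc10 (0.98) and Ccdc109b (0.98), and for Tlr1 Xylt2 (0.975), Usp31 (0.974) and Ldlrad3 (0.973). Between members, r was 0.92 for Tlr1 with Tlr4 and for Tlr3 with Cd14, and 0.11 for Cd14 with Ly96. These correlations are descriptions over 9 libraries that share 3 groups, and the differences between the groups make up most of each pattern.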

How the data were processed

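RAW264.7 cells were profiled in 9 libraries, 3 for each of 3 groups taken from the sample labels. The authors deposited log2 values with 3 decimals for each gene, made from single-end 3′ reads (QuantSeq) with quantile normalization by the methods of the study. The submitters' processing notes name Bowtie2, bedtools and mm10, without versions. The sorted columns were not identical (up to 1.6 apart at the same rank on the log2 scale), so which scaling they carry is not known. The 10 genes and the lists were chosen with earlier results of these data known. No column was left out, and no pair of libraries held identical values (chi-square per degree of freedom within groups 7.47 to 21.2), so all were counted as separate samples.

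Each comparison was fitted on its own 6 libraries with limma 3.58.1 in R 4.3.3 (lmFit and eBayes on the deposited values). A gene was tested if 3 or more of the libraries held 10 adjusted reads or more, with Benjamini-Hochberg adjustment over all of them. The code was tested on simulated data. Ratios were tested by exact permutation (scipy 1.17.1) under Python 3.11.15, with numpy 2.4.6, pandas 2.3.3 and matplotlib 3.10.9. All 10 genes were named, and from each list those that passed, at most the 4 with the largest difference per comparison, with Tirap, Ticam1, Ticam2, Irak4 and Traf6 always, and the 3 genes most like Cd14, Tlr4 and Tlr1. Markers and overlapping genes are named where a result touched them. Overlaps and distances come from GENCODE M21 on GRCm38, the build of mm10. The alternatives were other scalings (quantile normalization, equal totals), filters and thresholds, constants of 0.1 and 5 in place of 1, all 9 libraries in 1 fit, the replicate number as a block, robust variances with a trend, and each library left out. Leaving out the 3 libraries with few rows at 0 was added after seeing the data. Counts without genes under 10 adjusted reads in 2 or more libraries of a group were also added after seeing the data. On 35 symbols more than 1 row was listed, none of them a member.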

Additional observations from a re-analysis of the deposited data

How the results depend on the processing

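Scaling, constants, filters and the robust fit kept the number of genes that passed within 1.5 times the value reported, except that 267 genes passed with heat-killed MJ2 against RANKL alone when no filter was used. Other thresholds gave 3163 genes for surface proteins against RANKL alone and 1949 for surface proteins against heat-killed MJ2 without the limit on the fold change (2 of the 9 tested genes of the receptor group), and 799 for heat-killed MJ2 against RANKL alone at an unadjusted p. Leaving out 1 library at a time gave 1357 to 1822 genes for surface proteins against RANKL alone (3 to 5 of the 9), 81 to 347 for heat-killed MJ2 against RANKL alone (0 to 3) and 362 to 1176 for surface proteins against heat-killed MJ2 (0 to 1), with 81 and 362 both reached without replicate 1 of heat-killed MJ2. With 2 libraries a group these counts were 1394 (2), 109 (0) and 31 (0).

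Whether the replicate numbers mark shared sets is not stated. Deviations of libraries with the same number correlated at 0.02 to 0.11, too weakly to treat the numbers as a pairing, but every library correlated best with its own number, so a weak shared set cannot be told apart from none. With the replicate block, 289 genes passed with heat-killed MJ2 against RANKL alone, and 1 of the 9, Cd14, with Tlr3 (adjusted p = 0.0616) and Tlr4 (adjusted p = 0.082) lost. For surface proteins 1813 genes passed and Tlr7 was lost (adjusted p = 0.0784), and against heat-killed MJ2 980 passed.

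The differences that changed sign had not passed. For Ly96, heat-killed MJ2 against RANKL alone was 0.02 without replicate 2 of RANKL alone and 0.04 with 2 libraries a group, with a range of -0.35 to 0.02 over the single libraries left out. Surface proteins against heat-killed MJ2 gave -0.0021 for Myd88 after quantile normalization, -0.05 at equal totals, -0.01 without replicate 2 of heat-killed MJ2, -0.09 without replicate 3 of the surface proteins and -0.07 with 2 libraries a group (-0.09 to 0.1 over the single libraries left out), and -0.16 for Tlr6 with 2 libraries a group. The cause was not tested. Tlr9 and Tlr3 lie at the depth limit, with under 10 adjusted reads in some or all libraries.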
